A study of Mus musculus with 26 samples.

Results

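The step from day 4 to day 5 of motor neuron differentiation from mouse embryonic stem (ES) cells was described from a pair of RNA libraries, 1 for each day, out of 4 RNA libraries and 26 samples in the series. The day 5 library comes from cells labelled postmitotic motor neurons of the iCre line, treated with RA, SAG and DAPT. The day 4 library comes from cells labelled motor neuron progenitors of the HBG3 line, treated with RA and SAG. RA is retinoic acid at 1 uM and SAG, an agonist of Hedgehog signalling, was used at 0.25 uM, both added on day 2. From day 4 the cells of day 5 also received 5 uM DAPT, which inhibits gamma-secretase and so prevents the last cut of the Notch receptor. A further label field names Ainv15 cells for all samples. Total RNA was depleted of ribosomal RNA before sequencing. With 1 library per day there is no replicate error and no test, and every statement below compares these libraries. Because the line label changes together with the day and the DAPT treatment, the effects of line, day and DAPT cannot be told apart.

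Values are FPKM, fragments scaled by gene length and by library total, for 37450 gene IDs. The 11339 genes that reached 1 FPKM in at least 1 of both libraries were taken as measured, and each was described by the difference of log2(FPKM + 1), day 5 minus day 4. A gene is called higher or lower on day 5 where this difference reached 1, a 2-fold change on that scale, which understates the change of low genes. At the 1 FPKM limit, Stk33, at 1.00 FPKM on day 5 and 0.410 on day 4, was inside, and Gm17354, at 0.358 FPKM on day 5 and 0.999 on day 4, was outside. At the 2-fold limit, Stk39 (difference 1.0007) was called higher and Trim71 (−1.0002) lower, while 0610010F05Rik (0.99995) and Prmt3 (−0.99998) were not called. Of the measured genes, 9634 reached 1 FPKM in both libraries, 875 on day 5 but not on day 4, and 830 on day 4 but not on day 5. A gene of the second kind could enter only by being higher on day 5, and 473 of these 875 were called higher. For that reason counts for neuronal and signalling lists are also given over members at 1 FPKM or more on both days.

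In the developing spinal cord, motor neurons arise from ventral progenitors that respond to retinoic acid and to Sonic hedgehog and express Olig2. Notch signalling holds such progenitors in division through Hes repressors, and when it is lifted, proneural factors drive cell cycle exit. Newly born motor neurons then switch on the LIM-homeodomain factors Isl1 and Lhx3 and the homeodomain factor Mnx1, grow an axon and acquire cholinergic transmission. The comparison shows which genes differ between a culture labelled as progenitors and one labelled 1 day later.

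Promoters of 4 genes that were lower on day 5 are shown because a Notch target gene and cell cycle genes had large downward differences, and the letters of motifs known in such promoters lie in them. Each is the 250 bases before the RefSeq gene start (build GRCm38.p6), read 5′ to 3′ on the gene's strand. In Hes5, a Notch target and repressor of neuronal differentiation (chr4:154960673-154960922, plus strand), capitals mark GTGGGAA on either strand, letters bound by the Notch effector RBPJ. In Ube2c, a mitotic ubiquitin-conjugating enzyme (chr2:164769679-164769928, plus strand), and in Cdc20, which activates the anaphase-promoting complex (chr4:118437344-118437593, minus strand), capitals mark the cell cycle homology region (CHR) TTTGAA and the CCAAT box. In Mcm5, a subunit of the replicative helicase (chr8:75109259-75109508, plus strand), they mark the CCAAT box and the letters of the E2F site in any of 3 spellings. One spelling is TTCCCGC, another differs from it inside as TTGGCGC, and the last is read as TTCGCGC.
Hes5: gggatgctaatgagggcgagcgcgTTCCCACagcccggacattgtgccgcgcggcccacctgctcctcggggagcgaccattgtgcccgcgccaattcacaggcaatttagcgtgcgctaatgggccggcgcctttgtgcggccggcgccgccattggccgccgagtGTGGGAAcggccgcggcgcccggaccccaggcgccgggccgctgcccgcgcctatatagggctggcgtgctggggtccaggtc
Ube2c: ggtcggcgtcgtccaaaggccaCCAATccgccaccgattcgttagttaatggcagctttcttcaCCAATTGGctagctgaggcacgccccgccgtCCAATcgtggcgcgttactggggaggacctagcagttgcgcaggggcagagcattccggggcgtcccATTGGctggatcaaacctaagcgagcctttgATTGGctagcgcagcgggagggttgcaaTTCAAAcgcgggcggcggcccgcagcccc
Cdc20: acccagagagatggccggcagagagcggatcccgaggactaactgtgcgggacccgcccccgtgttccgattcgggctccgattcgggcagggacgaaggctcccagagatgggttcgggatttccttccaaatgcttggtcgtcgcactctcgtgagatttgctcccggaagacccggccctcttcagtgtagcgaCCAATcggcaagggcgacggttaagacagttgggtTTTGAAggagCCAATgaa
Mcm5: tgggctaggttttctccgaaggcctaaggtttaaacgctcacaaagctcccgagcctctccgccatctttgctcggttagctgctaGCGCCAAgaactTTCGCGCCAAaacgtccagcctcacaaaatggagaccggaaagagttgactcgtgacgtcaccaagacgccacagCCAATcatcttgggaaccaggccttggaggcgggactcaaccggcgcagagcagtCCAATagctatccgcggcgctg
Hes5 holds 2 RBPJ matches on opposite strands, whose far ends lie 226 and 83 bases before the start. Ube2c and Cdc20 each hold 1 CHR match, whose far end lies 29 and 18 bases before the start, and Ube2c holds 6 CCAAT matches, of which 2 overlap. Mcm5 holds 3 E2F matches, of which 2 overlap each other. A match describes the letters and not a bound site.

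Over all measured genes, 1308 were higher on day 5 (11.5%) and 1668 were lower (14.7%). The median gene lay at −0.11 on the log2 scale. After the libraries were rescaled so that the median gene ratio was 1, which moved them by −0.15 relative to each other, there were 1567 higher genes (13.8%) and 1378 lower genes (12.2%), so which direction holds more genes depends on the scaling. Differences of 4-fold or more were listed for 332 higher and 301 lower genes, and of 8-fold or more for 85 higher and 55 lower genes. In the lowest values, 34.4% of 512 genes under 0.05 FPKM on both days had a day 5 over day 4 ratio within 5% of 0.98, so 1 fragment was worth about the same in both libraries, but the total depth is unknown. Summed FPKM over the table was 194612 on day 5 and 255225 on day 4.

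**Figure D1:**
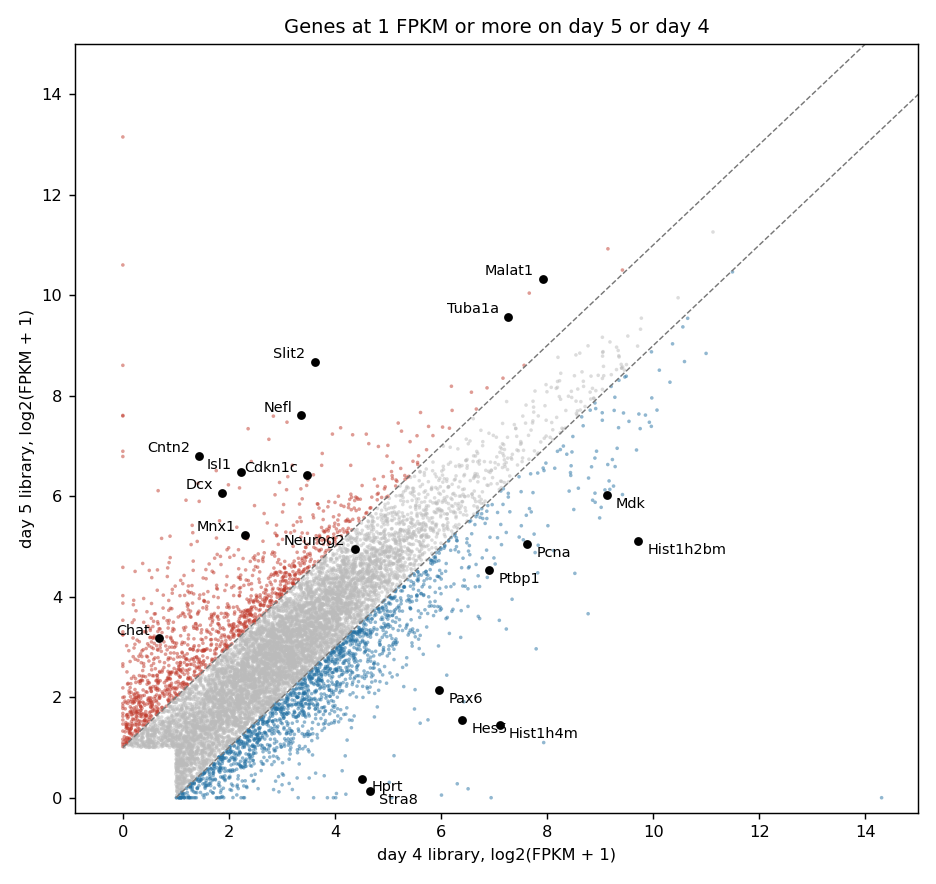
Each point is 1 of the 11339 measured genes, with log2(FPKM + 1) of the day 5 library on the vertical axis and of the day 4 library on the horizontal axis. Dashed lines mark 2-fold differences, red points are higher and blue points lower on day 5, and black points are named genes. Slit2, Cntn2 and Isl1 lie far above the upper line, and Hes5, Pax6 and Hist1h4m far below the lower one.

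The labels were first checked against defining genes. Of 9 matched motor neuron transcription factors all 9 were measured, and 8 were higher on day 5 and 0 lower, against 11.5% higher and 14.7% lower over all measured genes. Their median difference was 2.86, against −0.11 over all genes. Isl1 stood at 88.0 FPKM on day 5, against 3.68 on day 4, a difference of 4.25. Mnx1 stood at 36.5 FPKM on day 5, against 3.95 on day 4. Lhx3, the partner of Isl1 in the motor neuron complex, stood at 24.1 FPKM on day 5, against 2.09 on day 4, and its paralogue Lhx4 at 22.8 FPKM on day 5, against 0.797 on day 4. All 4 were therefore detectable in the progenitor library, Lhx4 under 1 FPKM, and several times higher on day 5. Onecut1 (12.5 FPKM on day 5, 1.99 on day 4) and Onecut2 (15.6 FPKM on day 5, 1.52 on day 4), factors with a cut domain expressed in early motor neurons, were also higher, and Onecut3 (1.15 FPKM on day 5, 0.160 on day 4) was within 2-fold. Ebf3, a helix-loop-helix factor of differentiating neurons, stood at 15.3 FPKM on day 5, against 1.24 on day 4, and Ebf2 at 7.23 FPKM on day 5, against 1.34 on day 4. Of the 7 members at 1 FPKM or more on both days, 7 were higher, against 8.67% higher and 13.5% lower over all 9634 such genes. Isl2 and Ebf1 were left out because their symbols are listed more than once.

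Factors of motor neuron columns and subtypes were less uniform, with 17 of 30 measured, 5 higher, 1 lower and a median of 0.63. Over the 13 at 1 FPKM or more on both days, 2 were higher and 1 lower. Foxp1, which marks limb-innervating motor neurons, stood at 23.1 FPKM on day 5, against 18.8 on day 4 and was within 2-fold. Nr2f2 (10.5 FPKM on day 5, 4.20 on day 4), Esrrg (3.57 FPKM on day 5, 0.1 on day 4), associated with gamma motor neurons, and Rbfox3 (2.71 FPKM on day 5, 0.237 on day 4), which encodes NeuN, were higher. Foxp4 (5.68 FPKM on day 5, 14.1 on day 4) was lower. All 4 measured of 7 cranial motor neuron markers were higher, although only 1 of them reached 1 FPKM on both days. Phox2a, a homeodomain factor of cranial motor neurons, was listed at 3.97 FPKM on day 5, against 0.231 on day 4.

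Hox genes, which fix position along the body axis, were mostly within 2-fold. Of 14 matched members of groups 1 to 5, 12 were measured, 2 were higher and 0 lower. Their median of −0.08 turned to 0.06 after rescaling. Hoxa5 stood at 80.0 FPKM on day 5, against 25.8 on day 4 and Hoxc5 at 14.1 FPKM on day 5, against 5.36 on day 4, both higher. Hoxd4 (48.0 FPKM on day 5, 51.4 on day 4) and Hoxb4 (34.6 FPKM on day 5, 22.4 on day 4) were within 2-fold. In groups 6 to 13, 5 of 24 were measured and 0 were called, with Hoxb6 highest at 53.5 FPKM on day 5, against 33.4 on day 4.

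Ventral progenitor patterning factors were lower in 8 of 15 measured cases out of 24 matched, with 1 higher and a median of −1.01. Over all measured genes 14.7% were lower and 11.5% higher. Over the 11 members at 1 FPKM or more on both days, 5 were lower and 0 higher, against 13.5% and 8.67% over all such genes. Pax6, a homeodomain factor of ventral and intermediate progenitors, stood at 3.42 FPKM on day 5, against 61.5 on day 4, a difference of −3.82. Olig2, the defining factor of motor neuron progenitors, stood at 17.3 FPKM on day 5, against 38.1 on day 4, so that it was lower but still well above 1 FPKM on day 5. Its difference of −1.10 became −0.96 after rescaling, within 2-fold. Nkx6-1 (17.5 FPKM on day 5, 18.4 on day 4), which is kept in motor neurons, was within 2-fold, while its paralogue Nkx6-2 (2.57 FPKM on day 5, 15.0 on day 4) was lower. Irx3 (7.06 FPKM on day 5, 20.9 on day 4), which marks the domain dorsal to motor neuron progenitors, and Nkx2-9 (3.26 FPKM on day 5, 14.3 on day 4) were lower as well. Nkx2-2, the factor of the adjacent V3 progenitors, was the exception, at 8.86 FPKM on day 5 and listed at 0 on days 0 and 4. It was listed at 5.18 FPKM on day 6.

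Genes of neural stem and progenitor cells split into a larger lower and a smaller higher group, with 15 lower and 6 higher of 34 measured. Over the 32 at 1 FPKM or more on both days, 14 were lower and 5 higher, against 13.5% and 8.67% over all such genes. Sox2 (13.02 FPKM on day 5, 57.6 on day 4), Sox3 (3.44 FPKM on day 5, 44.5 on day 4) and Sox21 (1.62 FPKM on day 5, 18.8 on day 4), factors of dividing neural progenitors, were lower. Id3 (2.40 FPKM on day 5, 44.2 on day 4) and Id1 (1.76 FPKM on day 5, 11.9 on day 4), which sequester E proteins from proneural factors, were lower, and Id4 (17.6 FPKM on day 5, 3.27 on day 4) was higher. Mdk, a heparin-binding growth factor, stood at 64.0 FPKM on day 5, against 556 on day 4. The intermediate filament gene Nes (7.48 FPKM on day 5, 33.4 on day 4) was lower, while Vim (132 FPKM on day 5, 182 on day 4) was within 2-fold. Sox11, a SoxC factor of young neurons, was a higher member, at 202 FPKM on day 5, against 47.9 on day 4. The Hox cofactor genes Meis1 (80.7 FPKM on day 5, 32.9 on day 4) and Meis2 (49.5 FPKM on day 5, 23.0 on day 4) were also higher. So was the membrane glycoprotein gene Gpm6a (8.29 FPKM on day 5, 0.507 on day 4).

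Proneural and neuronal differentiation factors were higher in 15 of 29 measured cases and lower in 1, with a median of 1.03. Over the 23 at 1 FPKM or more on both days, 9 were higher and 1 was lower. Myt1, a zinc finger factor that represses progenitor genes, stood at 58.6 FPKM on day 5, against 1.71 on day 4, a difference of 4.46. Its relatives St18 (41.8 FPKM on day 5, 1.47 on day 4) and Myt1l (2.06 FPKM on day 5, 0.0753 on day 4) were also higher. Nhlh2 (73.9 FPKM on day 5, 2.97 on day 4) and Nhlh1 (7.83 FPKM on day 5, 1.83 on day 4), helix-loop-helix factors of newly born neurons, were higher. Downstream factors of the same cascade, Neurod4 (44.2 FPKM on day 5, 9.28 on day 4), Neurod1 (11.8 FPKM on day 5, 3.77 on day 4) and Insm1 (15.2 FPKM on day 5, 4.35 on day 4), were higher too. Scrt1 (3.82 FPKM on day 5, 0.109 on day 4) and Scrt2 (6.05 FPKM on day 5, 0.362 on day 4), Snail-family factors, were higher. The proneural factors upstream of these did not follow: Neurog2 stood at 29.9 FPKM on day 5, against 19.7 on day 4 and Neurog1 at 4.28 FPKM on day 5, against 6.55 on day 4, both within 2-fold. Tox3 (1.25 FPKM on day 5, 7.68 on day 4) was lower.

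Notch pathway genes, whose receptors are substrates of the enzyme that DAPT inhibits, differed among themselves. Of 32 measured members out of 34, 8 were lower and 4 higher, and the median was −0.14 (−0.01 after rescaling). The higher count is near the 11.5% higher over all measured genes, of which 14.7% were lower. Over the 27 at 1 FPKM or more on both days, 7 were lower and 3 higher, against 13.5% and 8.67% over all such genes. Hes5 stood at 1.90 FPKM on day 5, against 83.4 on day 4, a difference of −4.86, placing it among the 20 largest differences downward over the whole table. Hes1, a further Hes repressor, stood at 3.26 FPKM on day 5, against 15.98 on day 4, and Nrarp, a feedback inhibitor switched on by Notch, at 4.61 FPKM on day 5, against 19.1 on day 4. These 3 genes are textbook targets of the pathway, while the related repressor genes Hey1 (5.26 FPKM on day 5, 4.08 on day 4) and Hey2 (0.630 FPKM on day 5, 1.11 on day 4) were within 2-fold. Among receptors, Notch2 (2.06 FPKM on day 5, 7.22 on day 4) and Notch3 (1.37 FPKM on day 5, 4.85 on day 4) were lower and Notch1 (14.3 FPKM on day 5, 16.2 on day 4) was within 2-fold. The fringe gene Lfng (4.83 FPKM on day 5, 15.4 on day 4), the ubiquitin ligase gene Dtx4 (8.79 FPKM on day 5, 30.2 on day 4) and the ligand gene Jag1 (0.999 FPKM on day 5, 3.78 on day 4) were lower. Of the ligands made by differentiating cells, Dll3 (20.2 FPKM on day 5, 5.87 on day 4) was higher and Dll1 (15.4 FPKM on day 5, 18.9 on day 4) was within 2-fold. Rbpj (15.0 FPKM on day 5, 5.95 on day 4), the DNA-binding effector, Adam10 (17.3 FPKM on day 5, 7.28 on day 4), the protease that makes the first receptor cut, and the ligand Dner (2.88 FPKM on day 5, 0.158 on day 4) were higher. Of 33 promoters found for 27 of the matched Notch genes, 4 (12.1%) held the GTGGGAA letters, against 5.42% of all 32851 RefSeq promoters. The share in promoters of measured genes is not given here, and this search was chosen after the data were seen. The Hes5 promoter printed above holds the GTGGGAA letters on both strands.

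**Figure D2:**
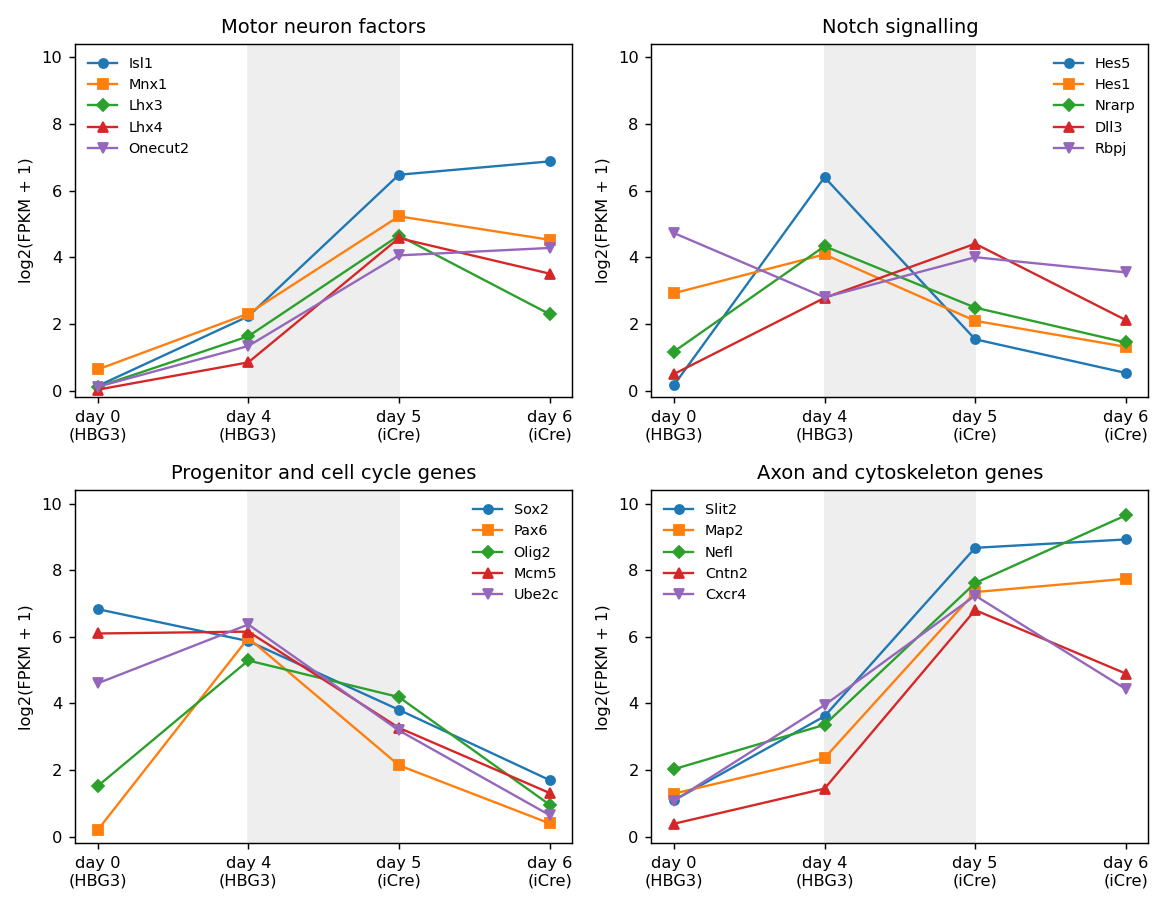
Levels of 20 genes in the 4 RNA libraries are shown as log2(FPKM + 1) by day, 1 library per point, with the step from day 4 to day 5 shaded and the line label under each day. Hes5, Hes1 and Nrarp were highest on day 4, Dll3, Lhx3, Cntn2 and Cxcr4 were highest on day 5, and Isl1, Slit2, Map2 and Nefl were higher still on day 6.

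Hedgehog pathway genes were lower in 9 of 15 measured cases and higher in 0, with a median of −1.25. Over the 9 at 1 FPKM or more on both days, 4 were lower. The targets and effectors Gli1 (0.404 FPKM on day 5, 11.4 on day 4), Gli2 (0.175 FPKM on day 5, 2.55 on day 4) and Gli3 (0.365 FPKM on day 5, 7.15 on day 4) were lower. The receptor Ptch1 (28.3 FPKM on day 5, 59.0 on day 4) and the signal transducer Smo (8.29 FPKM on day 5, 23.6 on day 4) were lower too. The same held for the coreceptor genes Gas1 (7.70 FPKM on day 5, 19.96 on day 4) and Boc (0.301 FPKM on day 5, 2.74 on day 4). After rescaling Ptch1 was within 2-fold, at −0.89. The ligand Shh (1.05 FPKM on day 5, 0.155 on day 4) was within 2-fold. The retinoic acid pathway held 4 higher and 4 lower of 18 measured, against 11.5% higher and 14.7% lower over all measured genes. Over the 15 at 1 FPKM or more on both days, 3 were higher and 3 lower. Stra8, a retinoic acid target, stood at 0.0985 FPKM on day 5, against 24.4 on day 4, and Cyp26a1, which degrades retinoic acid, at 5.04 FPKM on day 5, against 37.7 on day 4. The related enzyme gene Cyp26b1 went the other way, at 64.3 FPKM on day 5, against 6.31 on day 4. The binding protein genes differed likewise, with Crabp2 (95.0 FPKM on day 5, 456 on day 4) lower and Crabp1 (165 FPKM on day 5, 64.3 on day 4) higher. The receptor genes Rara (12.5 FPKM on day 5, 7.15 on day 4) and Rarb (17.5 FPKM on day 5, 19.5 on day 4) were within 2-fold.

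Of 16 measured genes of the FGF pathway and its feedback, 7 were higher and 1 lower, and over the 8 at 1 FPKM or more on both days 3 were higher and 1 lower. Dusp4, a phosphatase gene induced by ERK signalling, stood at 55.2 FPKM on day 5, against 4.59 on day 4, and Dusp6, a feedback phosphatase, at 11.7 FPKM on day 5, against 2.31 on day 4. Fgfr3 (4.44 FPKM on day 5, 12.4 on day 4) was lower. Of 24 measured Wnt pathway genes, 3 were higher and 5 lower, against 11.5% higher and 14.7% lower over all measured genes. Over the 18 at 1 FPKM or more on both days, 3 were higher and 3 lower, so that few members were called in either direction. Sfrp2, a secreted inhibitor, stood at 1.79 FPKM on day 5, against 47.7 on day 4, and Sfrp1 (4.44 FPKM on day 5, 18.6 on day 4) and the receptor Fzd7 (8.21 FPKM on day 5, 44.7 on day 4) were lower. Apc2 (19.7 FPKM on day 5, 1.86 on day 4) and Apc (35.4 FPKM on day 5, 12.1 on day 4), of the destruction complex and the neuronal cytoskeleton, were higher. In the BMP and TGF-beta pathway 5 of 14 measured genes were higher and 1 lower, and over the 11 at 1 FPKM or more on both days 4 were higher and 0 lower. Gdf11, a ligand that acts in the spinal cord, stood at 31.9 FPKM on day 5, against 6.63 on day 4.

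Genes of cell division were lower as groups. Of 48 genes of DNA replication and repair, all 48 were measured and 48 were lower (47 after rescaling), with a median of −2.04. Of 58 genes of mitosis and the spindle, all 58 were measured, 55 were lower and 0 higher, with a median of −1.91. Both counts stand against 14.7% lower over all measured genes. Pcna, the sliding clamp of DNA polymerase, stood at 31.9 FPKM on day 5, against 197 on day 4, and the helicase subunit Mcm5 at 8.64 FPKM on day 5, against 70.3 on day 4. Cdc6 (1.21 FPKM on day 5, 17.7 on day 4), which loads the helicase, and Rrm2 (20.3 FPKM on day 5, 103 on day 4), which makes deoxynucleotides, were lower. Of mitotic genes, Ube2c had the largest difference, at 8.13 FPKM on day 5, against 81.7 on day 4, and Cdc20 stood at 11.7 FPKM on day 5, against 48.3 on day 4. The mitotic kinase genes Cdk1 (12.1 FPKM on day 5, 72.7 on day 4), Aurkb (4.59 FPKM on day 5, 31.8 on day 4) and Plk1 (4.43 FPKM on day 5, 25.3 on day 4) were lower. The cyclin genes Ccnb1 (17.5 FPKM on day 5, 84.0 on day 4) and Ccna2 (12.5 FPKM on day 5, 63.2 on day 4) were lower as well. The 3 members of the mitosis list within 2-fold were Bub3 (21.8 FPKM on day 5, 38.4 on day 4), Cdc25b (9.22 FPKM on day 5, 15.3 on day 4) and Ncapd2 (14.5 FPKM on day 5, 19.9 on day 4). None of these mitotic genes was listed at 0 on day 5. In bulk RNA, fewer dividing cells and less RNA per cell cannot be told apart. Summed over each list, replication genes came to 366.5 FPKM on day 5 and 1642 on day 4, and mitosis genes to 425.0 on day 5 and 1712 on day 4. On day 6 the sums were 149.6 FPKM for replication and 80.1 FPKM for mitosis.

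Replication-dependent histone genes, which lack polyadenylated tails and are expressed in S phase, were lower in 52 of 57 measured cases and higher in 0, with a median of −2.45. Their summed level was 4825 FPKM on day 5 and 25440 on day 4. Hist1h4m stood at 1.73 FPKM on day 5, against 137 on day 4, Hist1h2bm at 33.3 FPKM on day 5, against 842 on day 4 and Hist1h4d at 458 FPKM on day 5, against 2042 on day 4. These genes have near-identical copies, so values of single genes are uncertain where the counting could split them. Of the replacement histones, used outside S phase, 3 of 10 were lower: H2afx (41.6 FPKM on day 5, 257 on day 4), H1fx (12.4 FPKM on day 5, 50.8 on day 4) and H2afz (113 FPKM on day 5, 329.8 on day 4). The H3.3 genes H3f3a (269 FPKM on day 5, 254 on day 4) and H3f3b (297 FPKM on day 5, 251 on day 4) were within 2-fold.

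Cyclins, CDK inhibitors and pocket proteins held 14 lower and 4 higher of 35 measured. Of the 4 higher members, Cdkn1c, an inhibitor gene, stood at 84.5 FPKM on day 5, against 10.1 on day 4. Cdkn1b, a further inhibitor gene, stood at 44.2 FPKM on day 5, against 18.2 on day 4. The others were Ccng2 (37.7 FPKM on day 5, 7.96 on day 4) and Cdk5r1 (25.1 FPKM on day 5, 1.51 on day 4), the neuronal activator of Cdk5. The G1 cyclin genes Ccnd2 (12.2 FPKM on day 5, 82.2 on day 4) and Ccnd3 (3.60 FPKM on day 5, 24.3 on day 4) were lower. So were Ccne1 (3.66 FPKM on day 5, 20.3 on day 4) and Ccne2 (1.98 FPKM on day 5, 16.3 on day 4), the cyclins of S phase entry, and Ccnd1 (11.2 FPKM on day 5, 14.8 on day 4) was within 2-fold. Among E2F genes, E2f7 (0.642 FPKM on day 5, 6.22 on day 4) and E2f8 (0.580 FPKM on day 5, 6.01 on day 4) were lower and E2f1 (1.79 FPKM on day 5, 4.51 on day 4) lay just within 2-fold.

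Motif letters were counted in the 250 bases before RefSeq gene starts, on both strands. CHR letters stood in 38.0% of 50 promoters found for 47 mitosis genes and in 10.9% of 46 promoters for 39 replication genes, against 9.91% of 10219 promoters of all measured genes and 16.0% of all RefSeq promoters. CCAAT letters stood in 74.0% of mitosis promoters and 60.9% of replication promoters, against 36.2% of those of measured genes and 33.8% of all. E2F letters stood in 16.0% of mitosis promoters and 39.1% of replication promoters, against 12.8% of those of measured genes and 6.69% of all. TTGGCGC shares 4 letters with the CCAAT box read on the other strand, and without it the E2F share was 4.00% in mitosis promoters and remained 39.1% in replication promoters. In all genes lower on day 5, shares were 10.9% for CHR, 38.4% for CCAAT and 18.8% for E2F, and in all genes higher on day 5 they were 9.61%, 33.0% and 8.38%. In the last 100 bases before the start the CHR share of mitosis promoters was 22.0% and the E2F share of replication promoters 21.7%, against 3.04% and 5.97% in promoters of measured genes. The printed promoters were chosen because they hold matches. Of others searched in the same way, the promoter of the mitotic gene Ccnb1 held no CHR letters and that of the replication gene Cdc6 no CCAAT letters. None of the histone genes in the list was matched by symbol to a RefSeq promoter.

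**Figure D3:**
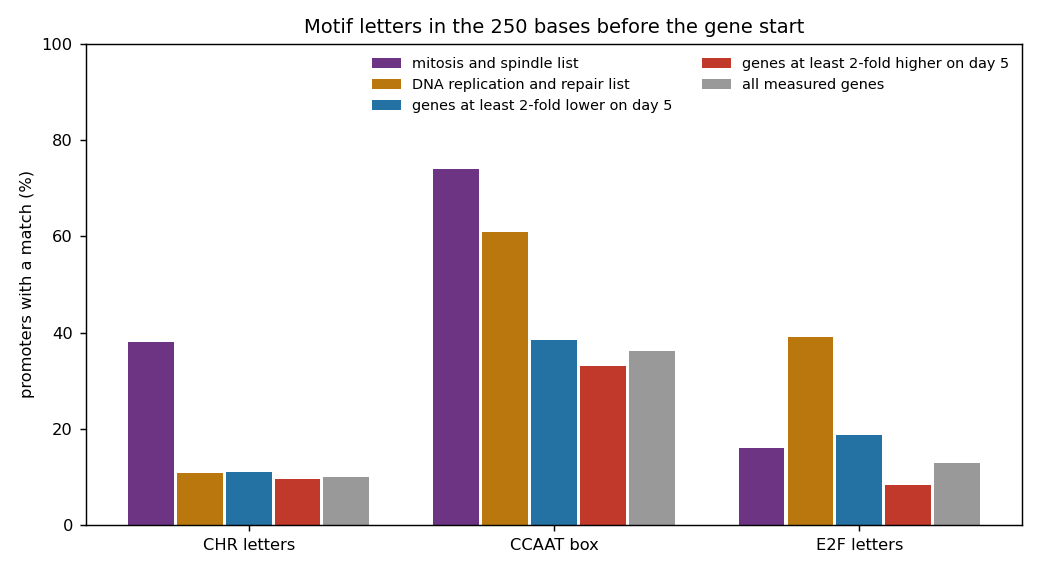
Bars give the percentage of promoters with a match on either strand in the 250 bases before the gene start, for 3 motifs (horizontal axis) and 5 gene groups (colours). CHR letters reach 38.0% in the mitosis list and between 9.61% and 10.9% in the other 4 groups, and E2F letters reach 39.1% in the replication list.

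Genes of ribosome production were lower. Of 28 nucleolar and ribosome biogenesis genes, 22 were lower and 1 higher, with a median of −1.46, and 18 were lower after rescaling. Npm1, the nucleolar chaperone nucleophosmin, stood at 201 FPKM on day 5, against 693 on day 4. Nop56 (29.4 FPKM on day 5, 115 on day 4) and Fbl (15.1 FPKM on day 5, 45.6 on day 4), of the snoRNP that methylates ribosomal RNA, were lower. So were the growth regulators Mycn (4.37 FPKM on day 5, 20.8 on day 4) and Myc (0.987 FPKM on day 5, 5.34 on day 4). Rrn3 (53.6 FPKM on day 5, 24.6 on day 4), a polymerase I initiation factor, was higher. Ribosomal protein genes lay lower by a smaller amount, with 9 of 34 lower (5 after rescaling), 0 higher and a median of −0.79. Rplp0 stood at 208 FPKM on day 5, against 614 on day 4 and Rps19, within 2-fold, at 279 FPKM on day 5, against 526 on day 4. Of 49 measured nuclear genes of the respiratory chain, 6 were lower (4 after rescaling) and 0 higher, a share under the 14.7% lower over all measured genes, with a median of −0.43. Glycolysis genes held 8 higher and 3 lower (2 after rescaling) of 27 measured, with a median of 0.49. The lower share is under the 14.7% over all measured genes, of which 11.5% were higher. Pfkp (9.60 FPKM on day 5, 0.481 on day 4), Ldha (163 FPKM on day 5, 70.4 on day 4) and the lactate exporter Slc16a3 (38.02 FPKM on day 5, 7.41 on day 4) were higher. The monocarboxylate transporter gene Slc16a1 (8.23 FPKM on day 5, 30.5 on day 4) was lower. All 21 cholesterol synthesis genes were measured and 6 were higher, 0 lower, with a median of 0.53.

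**Figure D4:**
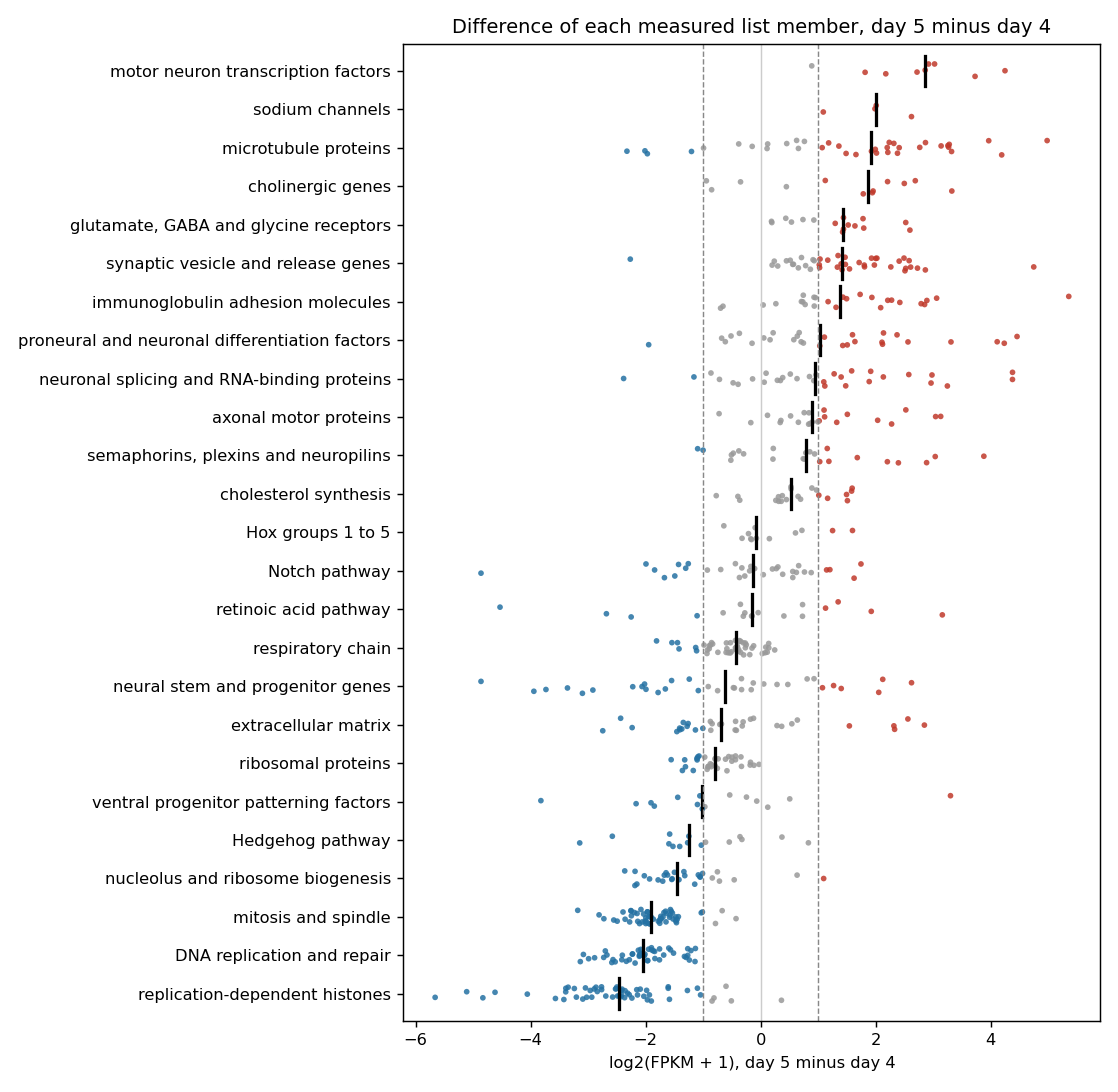
Each point is 1 measured member of 1 of 25 gene lists (rows), placed by its difference of log2(FPKM + 1), day 5 minus day 4. Black bars are list medians, dashed lines mark 2-fold, and red and blue points are members called higher and lower. Medians run from 2.86 in motor neuron transcription factors to −2.45 in replication-dependent histones.

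Chromatin regulators differed in few members. Of 26 BAF remodelling subunits, all measured, 3 were higher (6 after rescaling) and 1 lower, near the 11.5% higher and under the 14.7% lower over all measured genes. The higher members, Actl6b (2.69 FPKM on day 5, 0.136 on day 4), Dpf1 (7.27 FPKM on day 5, 2.40 on day 4) and Ss18l1 (6.88 FPKM on day 5, 2.40 on day 4), are subunits of the neuronal complex. The lower one, Phf10 (11.4 FPKM on day 5, 33.0 on day 4), is a subunit of the progenitor complex. Actl6a, the progenitor counterpart of Actl6b, stood at 23.7 FPKM on day 5, against 43.6 on day 4 and was within 2-fold. Rest, the repressor of neuronal genes, stood at 2.38 FPKM on day 5, against 6.91 on day 4 and was lower, as were Ctdsp1 (1.85 FPKM on day 5, 7.50 on day 4) and Ctdspl (1.12 FPKM on day 5, 3.97 on day 4), phosphatases recruited by it. These were the only 3 of 21 members called lower, near the 14.7% over all measured genes, and 0 were higher (2 after rescaling). Among H3K27 and DNA methylation enzymes, Dnmt1 (12.9 FPKM on day 5, 30.2 on day 4), Dnmt3b (1.40 FPKM on day 5, 4.78 on day 4) and Eed (6.25 FPKM on day 5, 18.2 on day 4) were lower. Tet2 (7.33 FPKM on day 5, 2.19 on day 4) was higher, while Ezh2 (25.0 FPKM on day 5, 35.5 on day 4) was within 2-fold.

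RNA-binding proteins that set neuronal splicing were higher in 15 of 32 measured cases and lower in 2, with a median of 0.94. Over the 24 at 1 FPKM or more on both days, 9 were higher and 2 lower. Ptbp1, which represses neuronal exons in progenitors, stood at 22.1 FPKM on day 5, against 119 on day 4, and its neuronal paralogue Ptbp2 at 101 FPKM on day 5, against 46.0 on day 4, so that per length Ptbp2 was the higher of the pair on day 5 and Ptbp1 on day 4. The Hu protein genes Elavl4 (139 FPKM on day 5, 5.74 on day 4), Elavl2 (177 FPKM on day 5, 7.54 on day 4) and Elavl3 (26.9 FPKM on day 5, 2.58 on day 4) were higher. Rbfox1 (12.0 FPKM on day 5, 0.370 on day 4), Nova1 (11.1 FPKM on day 5, 2.20 on day 4) and Srrm4 (4.85 FPKM on day 5, 1.10 on day 4), splicing regulators of neurons, were higher. Tardbp (51.1 FPKM on day 5, 115 on day 4) was the other lower member.

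Cytoskeletal genes of neurites were among the largest differences. Of 37 measured microtubule genes, 24 were higher and 4 lower, with a median of 1.93, and over the 32 at 1 FPKM or more on both days 21 were higher and 3 lower. Map2, which the table lists as Mtap2, encodes a dendritic microtubule-associated protein and stood at 161 FPKM on day 5, against 4.14 on day 4, a difference of 4.98. Dcx (66.0 FPKM on day 5, 2.67 on day 4), the doublecortin of young neurons, and Mapt (15.8 FPKM on day 5, 0.907 on day 4), encoding tau, were higher. Stmn2 (70.8 FPKM on day 5, 3.59 on day 4) and Gap43 (97.0 FPKM on day 5, 12.4 on day 4), of growth cones, were higher as well. Among tubulins, Tuba1a, the main alpha-tubulin gene of young neurons, stood at 759 FPKM on day 5, against 152 on day 4. Tuba1b (50.6 FPKM on day 5, 207 on day 4), Tubb6 (5.11 FPKM on day 5, 29.6 on day 4) and Tubb4b (42.3 FPKM on day 5, 98.6 on day 4) were lower. Tubb5 (572 FPKM on day 5, 526 on day 4) was within 2-fold. The 4 higher members of 11 measured intermediate filament genes were all neuronal, and 2 of them reached 1 FPKM on both days. The neurofilament genes were Nefl (195 FPKM on day 5, 9.27 on day 4) and Nefm (35.9 FPKM on day 5, 0.853 on day 4), and the others were Ina (97.1 FPKM on day 5, 8.16 on day 4) and Prph (8.16 FPKM on day 5, 0.436 on day 4). Of 23 measured axonal motor genes 10 were higher and 0 lower, all 10 of them at 1 FPKM or more on both days, among them the kinesin genes Kif5a (18.2 FPKM on day 5, 1.19 on day 4), Kif5c (69.0 FPKM on day 5, 7.50 on day 4) and Kif1a (9.36 FPKM on day 5, 1.53 on day 4). Kif5b (53.9 FPKM on day 5, 29.7 on day 4), the widely expressed paralogue, was within 2-fold.

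Axon guidance genes were higher more often than lower. Slit2, a secreted repellent, stood at 407 FPKM on day 5, against 11.3 on day 4, a difference of 5.05, and Slit3 at 192 FPKM on day 5, against 6.15 on day 4, while Slit1 (3.96 FPKM on day 5, 2.06 on day 4) was within 2-fold. The Slit receptor genes Robo1 (17.8 FPKM on day 5, 2.87 on day 4) and Robo2 (49.4 FPKM on day 5, 5.34 on day 4) and the netrin receptor gene Dcc (5.88 FPKM on day 5, 0.520 on day 4) were higher. The netrin ligand gene Ntn1 (10.7 FPKM on day 5, 30.9 on day 4) and Unc5a (5.38 FPKM on day 5, 17.0 on day 4) were the 2 lower of 14 measured, against 6 higher, and over the 12 at 1 FPKM or more on both days 4 were higher and 2 lower. Of 23 semaphorin, plexin and neuropilin genes 9 were higher and 2 lower (0 after rescaling), and over the 14 at 1 FPKM or more on both days 5 were higher and 1 lower. The neuropilin receptor genes Nrp1 (16.3 FPKM on day 5, 1.34 on day 4) and Nrp2 (26.2 FPKM on day 5, 2.32 on day 4) and Sema3d (22.2 FPKM on day 5, 0.572 on day 4) led them. Among Eph genes, 4 of 15 measured were higher and 0 lower, including Epha4 (16.4 FPKM on day 5, 5.53 on day 4), which guides limb motor axons, and Epha5 (6.83 FPKM on day 5, 0.356 on day 4). Over the 11 at 1 FPKM or more on both days 1 was higher, near the 8.67% over all such genes, and the median of the list was −0.01.

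Chemokine and neurotrophic receptors and ligands held 8 higher and 2 lower of 15 measured, and 5 higher and 2 lower over the 11 at 1 FPKM or more on both days. Cxcr4, a chemokine receptor of ventrally projecting motor neurons, stood at 149.8 FPKM on day 5, against 14.5 on day 4, while the scavenger receptor gene of the same chemokine, which the table lists as Cxcr7, stood at 5.23 FPKM on day 5, against 18.3 on day 4. Ret (15.6 FPKM on day 5, 1.87 on day 4) and Gfra1 (15.0 FPKM on day 5, 2.28 on day 4), the GDNF receptor genes, and Nrg1 (14.6 FPKM on day 5, 0.313 on day 4), a neuregulin that motor axons supply to Schwann cells, were higher. Ngfr (15.9 FPKM on day 5, 1.45 on day 4), a neurotrophin receptor gene that also counts as a marker of neural crest and sensory neurons, was higher as well. Of 12 such markers 3 were measured, 2 were higher and 0 lower. Pou4f1 (2.03 FPKM on day 5, 0.805 on day 4) was within 2-fold, Prdm12 (0.0306 FPKM on day 5, 0.157 on day 4) was under 1 FPKM, and Tfap2a was listed at 0 in both libraries.

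Immunoglobulin adhesion genes held 15 higher and 0 lower of 26 measured, and 6 higher and 0 lower over the 15 at 1 FPKM or more on both days. Cntn2, encoding the axonal glycoprotein TAG-1, had the largest upward difference of any list member, at 111 FPKM on day 5, against 1.72 on day 4 (5.36 on the log2 scale). L1cam (14.2 FPKM on day 5, 0.822 on day 4), Ncam1 (69.9 FPKM on day 5, 9.24 on day 4) and Cadm1 (148 FPKM on day 5, 19.1 on day 4) were higher. Cadherins outside the clusters held 9 higher and 2 lower of 19, the lower ones being Cdh1 (0.252 FPKM on day 5, 1.73 on day 4) and Celsr1 (2.89 FPKM on day 5, 9.61 on day 4), while Cdh2 (33.2 FPKM on day 5, 27.1 on day 4), encoding N-cadherin, was within 2-fold. Of these 19, 8 were under 1 FPKM on day 4, and over the 8 at 1 FPKM or more on both days 2 were higher and 1 lower. Genes of apical junctions and polarity, which hold the neuroepithelium together, were lower in 9 of 38 measured cases and higher in 4, against 14.7% lower and 11.5% higher over all measured genes. Over the 31 at 1 FPKM or more on both days 4 were lower and 2 higher, near the 13.5% lower and 8.67% higher over all such genes. F11r (2.27 FPKM on day 5, 14.9 on day 4), Shroom3 (1.10 FPKM on day 5, 8.03 on day 4) and Crb2 (1.84 FPKM on day 5, 9.74 on day 4) were lower. Ctnna2 (17.5 FPKM on day 5, 0.983 on day 4), the neuronal alpha-catenin, and Cldn3 (15.9 FPKM on day 5, 1.38 on day 4) were higher. Extracellular matrix genes held 12 lower and 5 higher of 34, and 10 lower and 3 higher over the 27 at 1 FPKM or more on both days. Lower members included Col18a1 (11.3 FPKM on day 5, 57.0 on day 4) and the glypican gene Gpc3 (2.46 FPKM on day 5, 17.7 on day 4). Higher ones included the neural proteoglycan gene Ncan (10.3 FPKM on day 5, 0.575 on day 4) and Gpc2 (36.3 FPKM on day 5, 6.48 on day 4).

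Transmission genes were higher but mostly low. Of 25 matched cholinergic genes 12 were measured, 8 were higher and 0 lower, and only 6 reached 1 FPKM on both days, of which 3 were higher. Chat, which makes acetylcholine, stood at 8.02 FPKM on day 5, against 0.596 on day 4. Slc10a4 (13.6 FPKM on day 5, 0.455 on day 4), a vesicular transporter gene of cholinergic cells, was higher. The nicotinic receptor genes Chrnb2 (10.5 FPKM on day 5, 0.783 on day 4), Chrna3 (19.9 FPKM on day 5, 3.53 on day 4) and Chrna4 (9.24 FPKM on day 5, 1.64 on day 4) were higher. Chrna7 (2.91 FPKM on day 5, 6.52 on day 4) was within 2-fold. Of 62 genes of synaptic vesicles and release, 42 were measured, 28 were higher and 1 lower, with 13 higher and 1 lower over the 21 at 1 FPKM or more on both days. Sncg, encoding gamma-synuclein, stood at 90.1 FPKM on day 5, against 2.39 on day 4. Snap25 (7.10 FPKM on day 5, 0.995 on day 4), of the vesicle fusion machinery, and Syt4 (10.1 FPKM on day 5, 0.815 on day 4), a synaptotagmin gene, were higher. Doc2a (1.33 FPKM on day 5, 10.2 on day 4) was lower. Only 4 of 14 sodium channel genes were measured, and each was under 1 FPKM on day 4, with Scn3a highest at 8.08 FPKM on day 5, against 0.474 on day 4. Of 15 measured potassium channel genes out of 54, 7 were higher and 2 lower, but 8 of the 15 were under 1 FPKM on day 4 and 2 reached 1 FPKM on both days, of which 1 was higher. Kcnh2 stood at 23.3 FPKM on day 5, against 8.44 on day 4. Of 16 measured glutamate, GABA and glycine receptor genes out of 42, 10 were higher and 0 lower, including Gria2 (5.76 FPKM on day 5, 0.176 on day 4) and Gabbr1 (18.9 FPKM on day 5, 7.08 on day 4). Of these 16, 10 were under 1 FPKM on day 4, and over the 6 at 1 FPKM or more on both days 3 were higher. Of 11 measured calcium channel genes 4 were higher and 1 lower, with 2 higher and 0 lower over the 8 at 1 FPKM or more on both days, and Cacna2d1, an auxiliary subunit, stood at 34.9 FPKM on day 5, against 2.40 on day 4.

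Imprinted genes, expressed from 1 parental allele, held 8 higher and 4 lower of 24 measured. The lower count is near the 14.7% over all measured genes, of which 11.5% were higher. Over the 20 at 1 FPKM or more on both days, 7 were higher and 2 lower, against 8.67% and 13.5% over all such genes. The non-coding transcripts of the Dlk1-Dio3 region, Meg3 (48.4 FPKM on day 5, 11.001 on day 4), Rian (114 FPKM on day 5, 12.5 on day 4) and Mirg (22.3 FPKM on day 5, 1.96 on day 4), were all higher. Grb10, an adaptor of growth factor receptors, stood at 175 FPKM on day 5, against 35.6 on day 4. Peg10 was listed at 13.7 FPKM on day 5 and at 0 on days 0, 4 and 6. Plagl1 (0.0600 FPKM on day 5, 15.3 on day 4), Mest (35.3 FPKM on day 5, 120.2 on day 4) and Peg3 (12.6 FPKM on day 5, 41.9 on day 4) were lower. Of 12 measured long non-coding RNAs 3 were higher and 3 lower, against 11.5% and 14.7% over all measured genes. Malat1, a nuclear RNA, stood at 1285 FPKM on day 5, against 242 on day 4, while Snhg1 (10.8 FPKM on day 5, 105 on day 4) and Gas5 (41.6 FPKM on day 5, 182 on day 4), hosts of snoRNAs, were lower. Stress and apoptosis genes held 10 lower and 3 higher of 33 measured, against 14.7% lower and 11.5% higher over all measured genes. The amino acid response factor Atf4 stood at 19.1 FPKM on day 5, against 85.6 on day 4. Its targets Chac1 (1.49 FPKM on day 5, 8.13 on day 4) and Sesn2 (5.49 FPKM on day 5, 25.8 on day 4) were lower.

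Markers of other cell types were mostly near 0. Pluripotency markers summed to 1.33 FPKM on day 5 and 4.14 on day 4 over 16 genes, of which 1 was measured. Mesoderm, endothelium and blood markers summed to 1.99 FPKM on day 5 and 1.75 on day 4 over 18 genes, of which 0 were measured. Glial markers summed to 37.9 FPKM on day 5 and 13.6 on day 4 over 15 genes. On day 5 that sum lies mostly in Slc1a2 (23.9 FPKM on day 5, 2.61 on day 4), a glutamate transporter gene, and Mbp (11.5 FPKM on day 5, 2.18 on day 4), while Gfap (0.0155 FPKM on day 5, 0.0129 on day 4) was near 0, Aqp4, S100b and Mog were listed at 0 on both days, and Slc1a3 (0.339 FPKM on day 5, 6.65 on day 4), also a radial glia gene, was lower. V2 interneuron markers summed to 2.62 FPKM on day 5 and 20.3 on day 4, nearly all of it Sox21. Interneuron markers of V0, V1 and dorsal classes summed to 5.42 FPKM on day 5 and 4.24 on day 4 over 18 genes. Endoderm and epithelium markers summed to 4.52 FPKM on day 5 and 10.2 on day 4 over 12 genes, and those of neural crest and sensory neurons to 26.7 on day 5 and 3.91 on day 4 over 12 genes. V3 and floor plate markers summed to 27.6 FPKM on day 5 and 48.0 on day 4, but their members differed. Of 5 measured, Ntn1 (10.7 FPKM on day 5, 30.9 on day 4) and Nkx2-9 (3.26 FPKM on day 5, 14.3 on day 4) were lower. Nkx2-2 (8.86 FPKM on day 5, 0 on day 4) was higher. Foxa2 (2.80 FPKM on day 5, 2.49 on day 4) and Shh (1.05 FPKM on day 5, 0.155 on day 4) were within 2-fold. The part of these cells in the differences above was not tested.

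Of the 1308 genes higher on day 5, 238 were at least 2-fold higher again on day 6 and 124 were at least 2-fold lower again, so that 9.48% peaked on day 5 by this 2-fold rule. Genes with a smaller drop to day 6, such as Slit3 (6.15, 192 and 138 FPKM on days 4, 5 and 6), are not among them. Among the 124 were Cxcr4 (14.5, 149.8 and 20.6 FPKM on days 4, 5 and 6), Cntn2 (1.72, 111 and 28.8), Nhlh2 (2.97, 73.9 and 27.6) and Cyp26b1 (6.31, 64.3 and 9.099). St18 (1.47, 41.8 and 3.81), Neurod4 (9.28, 44.2 and 2.26) and Lhx3 (2.09, 24.1 and 3.90) had the same shape. So did Grb10 (35.6, 175 and 52.9), Robo2 (5.34, 49.4 and 22.5) and Dll3 (5.87, 20.2 and 3.33). The step to day 6 shares the day 5 library, so a value that is high by error on day 5 takes this shape as well. Of the 1668 genes lower on day 5, 304 were at least 2-fold lower still on day 6 and 19 were at least 2-fold higher again.

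Genes that follow the line labels were listed, since days 0 and 4 carry HBG3 and days 5 and 6 iCre. The cells of day 6 had the same RA, SAG and DAPT treatment as those of day 5, and none of the 3 is listed for day 0. DAPT thus divides the libraries in the same way as the line, so this shape cannot tell line and DAPT apart. A gene counted where the 2 HBG3 libraries lay within 2-fold of each other, the 2 iCre libraries likewise, and each iCre value at least 4-fold from each HBG3 value, all taken on FPKM + 1, so that low values may differ by more in FPKM itself. This held for 161 genes, 104 higher and 57 lower in the iCre libraries. They include 34 higher and 19 lower members of the lists above, among them Elavl2 (7.17, 7.54, 177 and 128 FPKM on days 0, 4, 5 and 6) and Nefm (0.306, 0.853, 35.9 and 66.9), so the shape also takes in neuronal genes that are low in both earlier cultures. Of the 57 lower genes, 15 are in the lists of cell division and growth, such as the replication genes Cdc6 (16.4, 17.7, 1.21 and 0.267) and Dut (66.2, 90.0, 12.998 and 11.3). Others are not neuronal by their known roles. The metallothionein genes Mt1 (70.7, 85.2, 2.76 and 1.16) and Mt2 (105, 52.9, 1.93 and 0.880), the adaptor gene Baiap2l1 (26.9, 31.5, 0.235 and 0.0797) and Ifitm3 (15.0, 16.6, 0.450 and 0.111) were lower. Ftl2, a ferritin light chain gene, had 0.360, 1.67, 75.4 and 122 FPKM, and Gm6969 had 0.880, 0.586, 68.1 and 80.1. Of the 57 lower genes, 14 carry numbered or pseudogene names, led by Gm15772 (283, 244, 1.14 and 0.652).

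Hprt, a purine salvage enzyme gene on the X chromosome, had 55.4, 21.8, 0.300 and 0.311 FPKM on days 0, 4, 5 and 6. It misses the rule because the HBG3 libraries differ by more than 2-fold on that scale, yet both iCre values lie under 1 FPKM. In Ainv15 cells the inducible cassette is placed at the Hprt locus, which is background knowledge of that line. Of the other 10 measured X and Y linked genes checked, only Uty (1.55 FPKM on day 5, 4.20 on day 4) was called lower (within 2-fold after rescaling). G3bp2 had 118 and 32.6 FPKM on days 0 and 4 and was listed at 0 on days 5 and 6. Of 11 measured metallothionein and metal handling genes 4 were lower and 0 higher. Ftl1 had 283, 608, 72.6 and 109.7 FPKM, the opposite order to Ftl2. Ftl1 and Ftl2 are close copies of a ferritin light chain gene, so reads could be split between them.

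**Figure D5:**
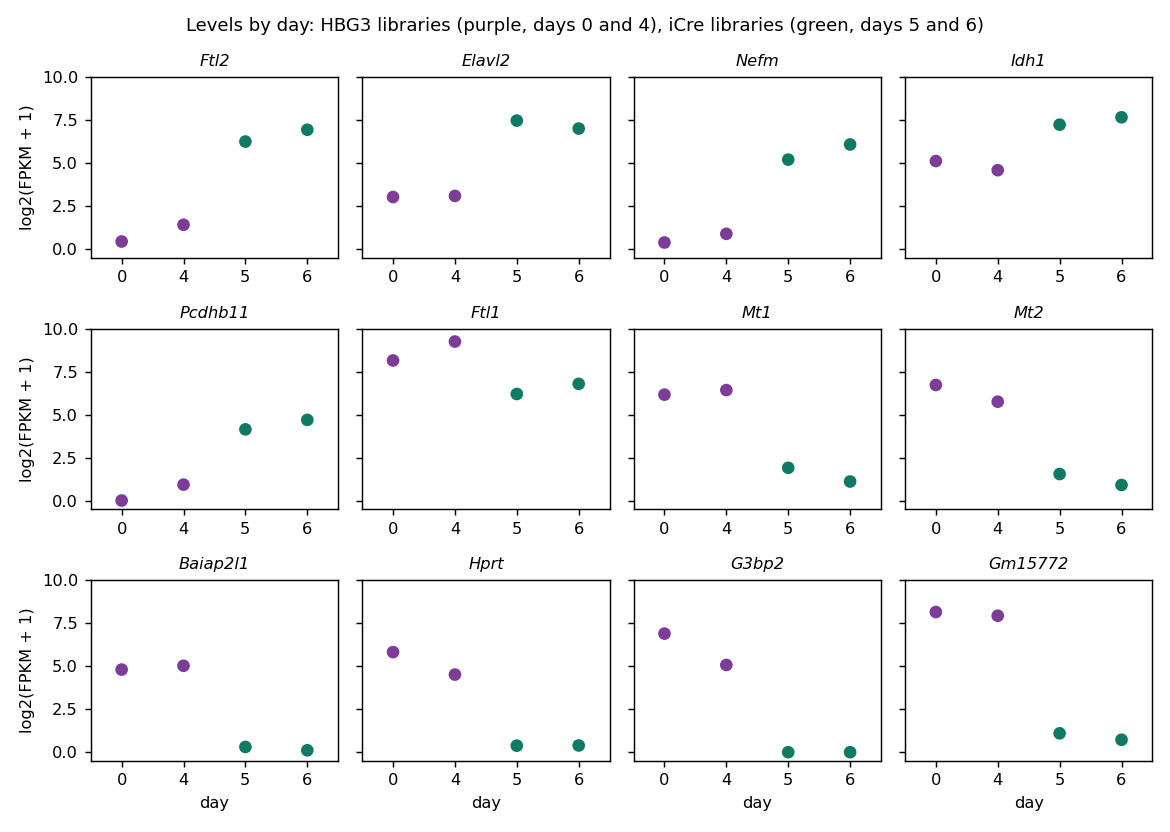
Levels of 12 genes are given as log2(FPKM + 1) in the 4 RNA libraries by day, 1 point per library, purple for HBG3 and green for iCre. In every panel both iCre libraries lie on the same side of both HBG3 libraries. Hprt, G3bp2 and Ftl1 miss the strict rule and were added after their values were seen.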

How the data were processed

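The authors deposited 1 table of FPKM for the 4 RNA libraries, per the file headers 1 column per day, with no counts. Build mm9 and, without a role for any, STAR, MACS, Bowtie 0.12.7 and HOMER 4.7.2 are named in the submitters' processing notes. The program that made the FPKM, the gene models and the use of strand are not given in the sources used here, so overlapping and antisense genes cannot be told apart. FPKM is a share of the library, so a few abundant entries move all others. Columns were assigned to days by their names. The columns of days 5 and 4 were compared in Python 3.11.15 with pandas 2.3.3 and NumPy 2.4.6, with figures by matplotlib 3.10.9. A pseudocount of 1 FPKM and a limit of 1 FPKM in either library were used, and a call needed 2-fold. Differences were checked on simulated data with known fold changes. Gene names were taken from the table and, for renamed list members, through gene IDs (32798 of 37450 found in a table of current names). Genes of lists and rules were chosen with earlier results of these data known. There were 58 lists, 9 of them cell type markers. Symbols listed more than once were left out of lists, and some members are not reported here. In lists, members with the largest differences and the defining members of a role were named. Outside lists, the rule named the 20 largest differences in each direction among genes reaching 10 FPKM, the 10 highest among genes called higher and among genes called lower, and up to 15 genes each that follow the line labels or peaked on day 5. Promoters came from RefSeq (GRCm38.p6). The peak lists of the series were not used here. Alternatives were pseudocounts of 0.1 and 5 FPKM, other limits, 2 rescalings, leaving out repeated symbols, a 1.5-fold limit within a line, and a window of 100 bases. Leaving out entries with short RNA names and leaving out TTGGCGC were chosen after seeing the data, as was the RBPJ search.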

Additional observations from a re-analysis of the deposited data

How the results depend on the processing

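The join of deposited peaks to gene starts was not run, since no annotation of build mm9 was used here. No paired analysis was possible because each day has 1 library and no result comes from a test. The counts of genes higher on day 5 (1308) and lower (1668) stayed within 1.5 times under 6 of the 8 planned settings for higher genes and 7 of the 8 for lower genes. Of these 8, dropping the 1 FPKM limit could not change a count, because a call on this scale already needs 1 FPKM in the higher library. With a pseudocount of 5 FPKM the counts of higher and lower genes were 545 and 701, and over genes at 1 FPKM or more in both libraries 835 were higher. The 124 genes that peaked on day 5 became 192 and 49 with pseudocounts of 0.1 and 5 FPKM and 77 over genes at 1 FPKM or more in both libraries. The 161 genes that follow the line labels became 298 and 40 with these pseudocounts, 76 over genes at 1 FPKM or more in both libraries, and 75 with a 1.5-fold limit within a line. The pseudocounts and limits weigh low genes differently by construction. In the last 100 bases before the start, CHR letters stood in 22.0% of mitosis promoters, against 38.0% in 250 bases, and E2F letters in 21.7% of replication promoters, against 39.1%. Among promoters of measured genes the shares in 100 bases were 3.04% and 5.97%, against 9.91% and 12.8% in 250. A pseudocount or a limit cannot change the sign of a difference, and the rescalings move a difference by less than a call needs. None of the called genes among the 1196 named genes could therefore change sign under these settings. Genes near 0 such as Hoxd4 (−0.10, and 0.05 after rescaling) did. A pseudocount of 5 FPKM took 200 named genes out of a call, one of 0.1 FPKM brought 85 into one, and rescaling to a common median ratio took 30 out and brought 29 in. Of 116 counts of called list members, 45 moved by over 1.5 times with a pseudocount of 5 FPKM, 38 with 1 FPKM or more in both libraries, 24 with 5 FPKM in either, 14 with a pseudocount of 0.1 FPKM and 6 with each rescaling. With no replicate and no read counts, the error of any value is unknown.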

Other observations

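Several families were taken whole by name after their values were seen, and are given as values. Of 25 clustered protocadherin genes, cell surface proteins that give neurons individual identities, 22 were measured, 21 were higher and 0 lower. Summed, they came to 151.9 FPKM on day 5, against 22.04 on day 4. Pcdhb11 had 16.7 FPKM on day 5 and 0.909 on day 4. Pcdhb22 had 11.6 FPKM on day 5 and 1.21 on day 4. Most of these genes were under 1 FPKM on day 4 and so were measured only through day 5. Pcdhga9 was the measured member within 2-fold, with 17.0 FPKM on day 5, against 14.6 on day 4. Of 9 snoRNA host genes, 8 were lower and 1 higher, with a median of −2.10. Snhg3 had 8.44 FPKM on day 5, against 40.6 on day 4. Snhg12 had 8.38 FPKM on day 5, against 32.1 on day 4. Snhg11 was the higher one, with 9.22 FPKM on day 5, against 2.23 on day 4. By name, 79 ribosomal protein genes were measured, with 26 lower, 0 higher and a median of −0.85.

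Mitochondrially encoded genes differed among themselves. Of 13, 8 were measured, with 4 lower and 2 higher. mt-Nd1 had 409.1 FPKM on day 5, against 1539 on day 4. mt-Cytb had 178.8 FPKM on day 5, against 744.6 on day 4. mt-Co1 had 1412 FPKM on day 5, against 2882 on day 4, and was within 2-fold after rescaling. mt-Nd6, the protein gene on the opposite strand to the others, had 156.1 FPKM on day 5, against 37.2 on day 4. mt-Atp6 and mt-Nd4l were listed at 0 on both days, and mt-Co2 and mt-Co3 at 0 on day 5, so a value of 0 in this table can be a failed estimate. Camsap1, a microtubule minus-end gene, was listed at 0 on day 5 and had 8.93, 14.7 and 30.3 FPKM in the libraries of days 0, 4 and 6. Lars2, a mitochondrial leucyl-tRNA synthetase gene, had 3.35, 1.28, 59.6 and 3.77 FPKM on days 0, 4, 5 and 6.

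The largest differences of all were short RNA entries. Mir5105 had 9089 FPKM in the day 5 library and was listed at 0 on the other days. Mir5115 was listed at 0 on day 5, against 20245 FPKM on day 4, and had 14396 FPKM on day 6 and 0 on day 0. The 7 measured U6 entries held 192.7, 194.2, 194.8, 388.3 in a pair of entries, 1553 and 1942 FPKM on day 5, and 388.3, 1553 and 1942 are 2, 8 and 10 times 194.2. Among 17 measured entries with short RNA names, 10 were higher and 4 lower.

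Differences varied with gene span, the length from start to end in GRCm38.p6, found for 98.8% of measured genes outside the short RNA entries. Genes were put in 5 equal classes by span. In the class of longest genes (2239 genes, above 72.0 kb) 20.3% were higher and 7.32% lower, with a median of 0.24. In the class of shortest genes (2238 genes, up to 7.77 kb) 9.56% were higher and 23.1% lower, with a median of −0.40. The medians of the classes between were −0.26, −0.14 and 0.01, in order of span. Differences also varied with level. Of 287 genes averaging 100 FPKM or more, 33.8% were lower and 8.01% higher, against 11.8% lower and 12.7% higher among 1943 genes averaging under 2 FPKM.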
